A study of Mus musculus with 9 samples.

Results

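Dual-specificity MAP kinase phosphatases are enzymes that remove phosphate from both the threonine and the tyrosine of the activation loop of a MAP kinase and so switch it off. The 10 genes described here were taken by symbol, as all probe sets whose only gene symbol in the platform annotation was Dusp1, Dusp2, Dusp3, Dusp4, Dusp5, Dusp6, Dusp7, Dusp10, Dusp16 or Dusp22. They had 16 probe sets among 45101 on the array, and 10 genes among 18193 named by a single symbol. All 10 genes and 15 of the 16 probe sets passed the filter on low signals.

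Messenger RNA was measured on 9 Affymetrix mouse arrays, in dendritic cells grown from 129/SvEv bone marrow with the growth factor GM-CSF over 9 to 12 days. There were 3 groups of 3 arrays: STING knockout cells given purified tumor-cell DNA with a lipid transfection reagent for 7 h (STING tumor DNA), wild-type cells given the same treatment (WT tumor DNA), and unstimulated wild-type cells (WT media). STING is an adaptor protein downstream of the sensing of cytosolic DNA. No media arrays of the knockout and none of the reagent by itself were analysed here, so the effect of DNA cannot be told apart from that of the reagent, nor can the knockout's effect on the response be told apart from its effect at rest. Whether the arrays of a group stand for different mice or cultures is not in the labels, and every p-value here is set against a spread between arrays that may be technical.

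MAP kinases fall into the ERK, JNK and p38 groups, which are activated by kinase cascades when dendritic cells sense danger signals, and which drive cytokine genes. The phosphatases are feedback brakes on them. Dusp1, Dusp2, Dusp4 and Dusp5 encode nuclear enzymes that are usually induced by the very signal they end. Dusp6 and Dusp7 encode cytoplasmic enzymes selective for ERK, and Dusp10 and Dusp16 encode enzymes that prefer JNK and p38. Dusp3 and Dusp22 encode small, atypical members of the family that lack the kinase-binding domain of the others.

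The promoters of 5 of these genes are shown because their transcripts behaved differently on the arrays: Dusp1, Dusp5, Dusp10 and Dusp16 were higher with tumor DNA in wild-type cells and Dusp3 was lower. The sequences are those of RefSeq (C57BL/6J, build GRCm38.p6), not of the 129/SvEv strain used, and were available for 9 of the 10 genes. Each runs 5′ to 3′ over 100 bases on the strand of the gene, in lower case, with capitals for matches to the motifs named next. The stretches lie at chr17:26508573-26508672 for Dusp1 (minus strand, bases -200 to -101 from the transcript start), chr19:53529045-53529144 for Dusp5 (plus), chr1:184034281-184034380 for Dusp10 (plus), chr6:134792629-134792728 for Dusp16 (minus) and chr11:101984792-101984891 for Dusp3 (minus). The last 4 end at the base before the start, and the starts listed for Dusp16 and Dusp3 lie inside the outer bounds of those genes.
Dusp1: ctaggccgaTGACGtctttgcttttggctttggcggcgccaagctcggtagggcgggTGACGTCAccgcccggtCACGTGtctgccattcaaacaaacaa
Dusp5: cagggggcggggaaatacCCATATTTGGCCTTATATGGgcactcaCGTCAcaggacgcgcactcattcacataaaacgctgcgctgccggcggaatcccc
Dusp10: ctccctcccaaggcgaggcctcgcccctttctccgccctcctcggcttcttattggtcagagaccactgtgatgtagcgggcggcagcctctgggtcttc
Dusp16: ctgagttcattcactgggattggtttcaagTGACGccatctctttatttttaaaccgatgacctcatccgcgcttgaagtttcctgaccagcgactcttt
Dusp3: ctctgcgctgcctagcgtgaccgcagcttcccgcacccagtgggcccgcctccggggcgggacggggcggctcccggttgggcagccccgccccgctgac

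Motifs were searched on both strands in the 250 bases before the start of the 9 genes and of all 32851 promoters in the table. The full cAMP response element (TGACGTCA), a site for CREB-type factors, occurred in Dusp1 from base -143 to -136 and in 1.55% of all promoters. Its core (TGACG), which lies within every full element, occurred in Dusp1, Dusp5 and Dusp16 and in 17.8% of all promoters. Dusp5 held 2 adjacent CArG boxes, the site of serum response factor, from base -82 to -63, and 1.47% of all promoters held at least 1. An E-box (CACGTG) was found in Dusp1 and Dusp2 and in 6.02% of all promoters. An AP-1 site (TGANTCA), an NF-kappaB site, an interferon-stimulated response element and a gamma-activated site (TTCNNNGAA) were in 0 of the 9 promoters, against 6.75%, 3.86%, 2.98% and 7.02% of all. These matches describe letters in a short window and were not tested for use in the cells.

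**Figure D1:**
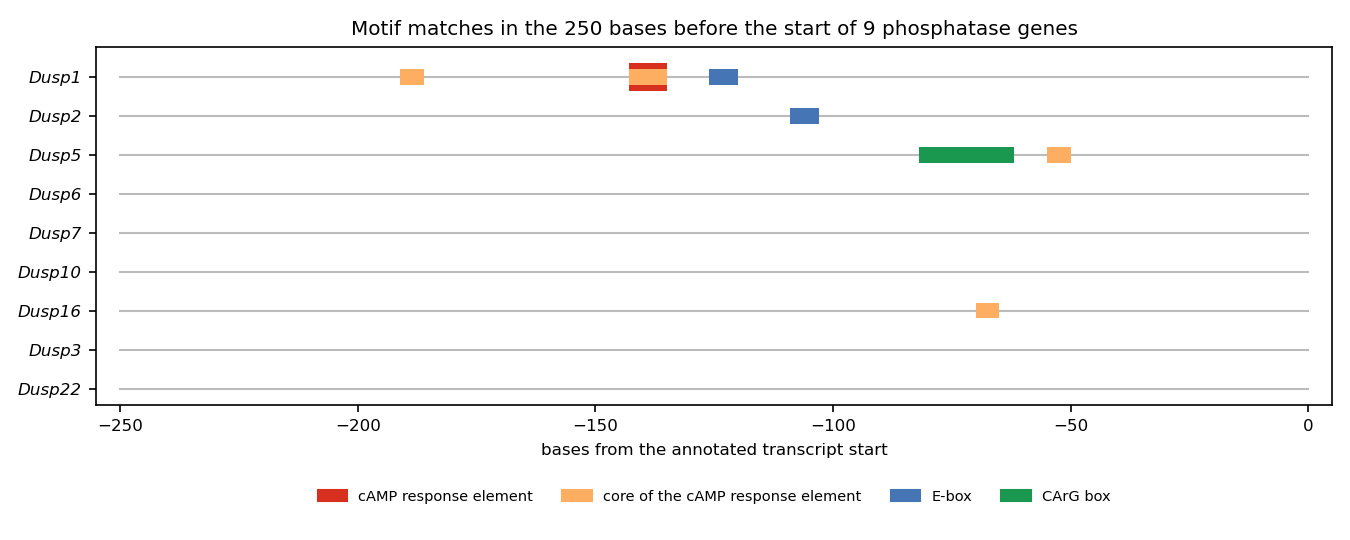
Motif matches in the 250 bases before the annotated transcript start of 9 phosphatase genes, with distance from the start in bases on the horizontal axis and 1 line per gene. Coloured blocks mark matches: Dusp1 holds the only full cAMP response element among them and Dusp5 the only pair of CArG boxes.

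Values are MAS5 signals, linear brightness units, with a trimmed mean of 500 on every array as deposited. The median probe set read 53.7 to 70.9 units, and signals near or below that cannot be told from background. Differences were taken on log2(signal + 16), which understates changes at low signals, and each gene was read by its brightest probe set. A gene was called at a limma adjusted p (Benjamini-Hochberg) below 0.05 over 12586 genes. The targeted gene, read by its brighter probe set, gave 246 to 336 units in STING tumor DNA arrays, 1060 to 2260 in WT tumor DNA arrays and 646 to 1520 in WT media arrays; its position relative to the altered sequence is not known here. The spike-in BioB gave 406 to 552 units on the 3 arrays numbered 1, against 115 to 189 on the rest, so values within each number are given for Dusp1, Dusp3, Dusp7, Dusp10 and Dusp16. Signal ratios of 3' to 5' probe sets, a measure of RNA quality, lay between 0.80 and 0.90 for Gapdh and between 1.04 and 1.14 for actin.

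As for the labelled cell type, all 7 macrophage markers and 5 of 8 dendritic cell markers lay above the array median on every array of all groups, Itgax and H2-Ab1 among them. The dendritic cell markers Flt3 and Cd209a did not in any group, and Zbtb46 did not in the WT tumor DNA and WT media groups. Mast cell and basophil markers summed to 258 to 306 units in STING tumor DNA arrays, 1310 to 3490 in WT tumor DNA arrays and 371 to 1190 in WT media arrays, and Fcer1a, Ms4a2 and Kit were below the array median on at least 1 array of every group. Without Hdc, the only one of the 6 called with DNA in wild type (4.14), the sums were 242 to 248 units in STING tumor DNA arrays, 510 to 1440 in WT tumor DNA arrays and 350 to 1070 in WT media arrays. In the knockout under DNA 4 of the 6 were called lower. With the replicate number as a block Fcer1a was also called lower in the knockout against media (limma adjusted p = 0.04). Neutrophil markers summed to 33200 to 38000 units in STING tumor DNA arrays, 22500 to 77200 in WT tumor DNA arrays and 16000 to 61400 in WT media arrays, and 1 of 6 was called, Mpo, lower in the knockout under DNA. The replicate block also called Camp and Elane lower there (-1.90 and -1.24, limma adjusted p = 0.0012 and 0.019). It called Camp lower in the knockout against media as well (limma adjusted p = 0.041). Macrophage markers summed to 60400 to 79000 units in STING tumor DNA arrays, 80500 to 101000 in WT tumor DNA arrays and 61600 to 76500 in WT media arrays. Of the 7, Fcgr1 and Cd14 rose in wild type (2.10 and 0.49), and Fcgr1 and Mertk were lower in the knockout under DNA (-2.32 and -1.65). With the block Mertk was also called higher in wild type (1.08, limma adjusted p = 0.00047). Mrc1 and Adgre1 were then called lower in wild type (-0.93 and -0.42, limma adjusted p = 0.03 and 0.017). In the knockout under DNA the block called both higher (1.46 and 0.41, limma adjusted p = 0.0039 and 0.021). B cell markers summed to 148 to 307 units in STING tumor DNA arrays, 360 to 2280 in WT tumor DNA arrays and 286 to 1250 in WT media arrays, with 0 of 3 tested called by limma without the block. With it all 3, Cd79a, Cd79b and Ms4a1, were called lower in the knockout under DNA. Their differences were -1.17, -1.22 and -1.79 (limma adjusted p = 0.017, 0.019 and 0.0069). T and NK cell markers summed to 153 to 200 units in STING tumor DNA arrays, 222 to 301 in WT tumor DNA arrays and 146 to 179 in WT media arrays, and Cd247 differed by 1.15 in wild type and -1.17 in the knockout, both called. Of 7 dendritic cell markers tested 0 were called by limma in any comparison with the main settings. The block called Ciita lower in wild type (-0.89, limma adjusted p = 0.0028). In the knockout under DNA it called Cd74 and H2-Ab1 lower (-0.30 and -0.31, limma adjusted p = 0.021 and 0.046). With centring over the kept probe sets Itgax was called higher in wild type (limma adjusted p = 0.024) and Cd74 lower in the knockout under DNA. Cd74 was also called there with no offset. The part of these cell types in the results below was not tested. In bulk samples fewer cells of a type and less RNA per cell cannot be told apart.

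In wild-type cells tumor DNA moved most of the phosphatase genes, in both directions. Dusp1, Dusp5, Dusp10 and Dusp16 rose, by log2 differences of 1.09 to 1.84, and Dusp3, Dusp7 and Dusp22 fell, by -0.90 to -1.59. Dusp2, Dusp4 and Dusp6 did not pass the test. The 7 called of 10 compare with 33.6% of all genes called in this comparison, the 4 higher with 9.94% and the 3 lower with 23.6%. The members' median difference was 0.89, against -0.20 for all genes. In 8 of the 10 the groups did not overlap, which held for 46.4% of all genes.

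Under tumor DNA, STING knockout cells differed from wild-type cells in 5 of the 10, each in the direction opposite to its change in wild type. Dusp1, Dusp10 and Dusp16 were lower and Dusp3 and Dusp7 higher in the knockout. Of all genes 31.5% were called in this comparison, 21.8% higher and 9.73% lower. The members' median was -0.13, against 0.20 for all genes, and groups did not overlap in 6 of the 10, against 46% of all genes. Both comparisons share the 3 WT tumor DNA arrays, so the opposite signs are not independent of each other.

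Knockout cells given DNA were then set against wild-type media cells. Here 0 of the 10 genes were called by limma, and 3 (Dusp1, Dusp2 and Dusp5) had an unadjusted p below 0.05. Of all genes 0.429% were called and 7.53% had an unadjusted p below 0.05. The groups did not overlap for 4 of the 10 (Dusp1, Dusp2 and Dusp3 higher in the knockout, Dusp22 lower), against 13.8% of all genes. A p that misses the threshold does not show that levels were alike, and intervals are given below for the members where this matters.

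**Figure D2:**
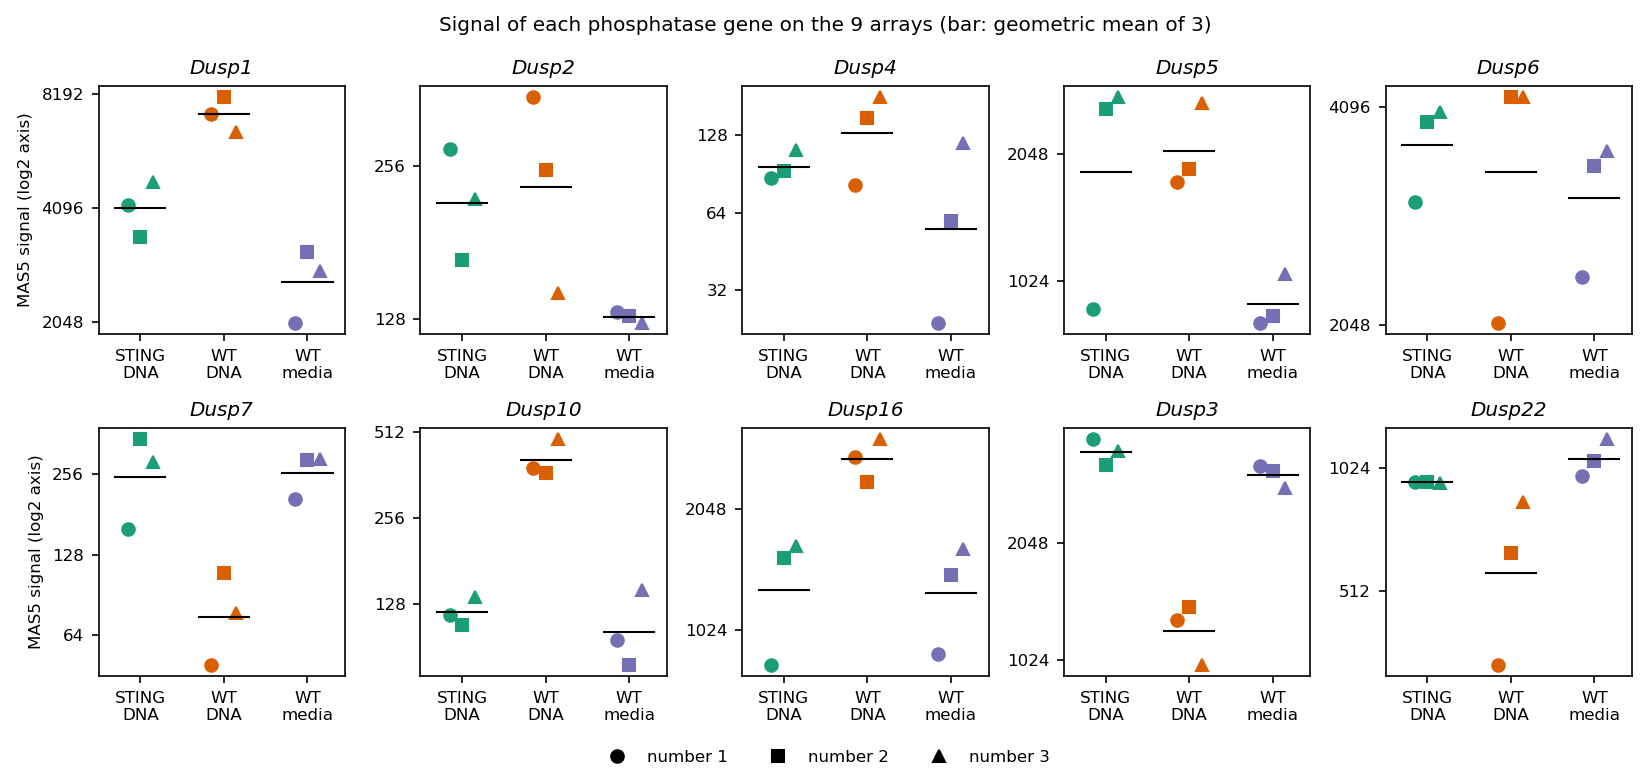
MAS5 signal (log2 axis, scale differs by panel) of the probe set standing for each gene, with STING tumor DNA left, WT tumor DNA in the middle and WT media right. Symbols give the array number and bars the geometric mean of 3 arrays; the Dusp10 and Dusp16 signals of WT tumor DNA lie above those of the 6 other arrays, and those of Dusp3 and Dusp7 below them.

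Dusp10 and Dusp16, the pair that prefers JNK and p38, were raised by DNA in wild type and lower in the knockout. Dusp10 (probe set 1417164_at) read 117, 108 and 135 units in STING tumor DNA arrays, 382, 368 and 482 in WT tumor DNA arrays, and 95.6, 78.4 and 143 in WT media arrays (numbers 1, 2 and 3). All WT tumor DNA signals were above those of the other arrays, and the knockout and media arrays overlapped. The rise in wild type was 1.84 ± 0.23 (SE, n = 3 per group, limma adjusted p = 0.00073), and it was 1.84, 2.03 and 1.65 within numbers 1, 2 and 3. Under DNA the knockout differed from wild type by -1.65 ± 0.23 (limma adjusted p = 0.00093), at -1.58, -1.63 and -1.72 within the numbers. These sizes depend on the offset: they were 1.995 and -1.772 with no offset and 1.495 and -1.363 with an offset of 64. Against media the knockout differed by 0.19 ± 0.23 (limma adjusted p = 0.96), with a 95% interval of -0.33 to 0.72. The other Dusp10 probe set read 2.04 to 19.7 units on all 9 arrays, below the array medians, and did not pass the filter.

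Dusp16 (1418401_a_at) read 841, 1550 and 1660 units in STING tumor DNA arrays, 2770, 2390 and 3060 in WT tumor DNA arrays, and 892, 1410 and 1630 in WT media arrays. In the knockout and in media the array numbered 1 was the lowest. Within numbers 1, 2 and 3 the wild-type difference was 1.62, 0.75 and 0.90, and the knockout difference under DNA was -1.70, -0.62 and -0.88. The rise in wild type was 1.09 ± 0.29 (limma adjusted p = 0.017) and under DNA the knockout differed from wild type by -1.06 ± 0.29 (limma adjusted p = 0.019). The first call ended without WT tumor DNA array 3 or WT media array 1 (adjusted p = 0.054 and 0.057) and without the arrays numbered 2 or 3 (0.066 and 0.078). The second ended without STING tumor DNA array 1 (0.050) or WT tumor DNA array 1 or 3 (0.054 and 0.061), without number 2 or 3 (0.066 and 0.087), and with the mean of both probe sets (-0.69, adjusted p = 0.092). The other Dusp16 probe set was dim, at 13.8 to 64.5 units, and differed by 0.68 ± 0.36 with DNA in wild type and by -0.30 ± 0.36 in the knockout. Against media the knockout differed by 0.03 ± 0.29, with a 95% interval of -0.62 to 0.67.

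Among the nuclear, inducible enzymes Dusp1 showed a graded pattern. It acts on p38 and JNK and restrains inflammatory cytokines in mouse myeloid cells. Dusp1 (1448830_at) read 4170, 3430 and 4800 units in STING tumor DNA arrays, 7280, 8040 and 6510 in WT tumor DNA arrays, and 2040, 3140 and 2790 in WT media arrays. The 3 groups did not overlap, and the knockout lay between the wild-type groups. The difference between DNA and media in wild type was 1.46 ± 0.19 (limma adjusted p = 0.00073) and under DNA the knockout differed from wild type by -0.82 ± 0.19 (limma adjusted p = 0.0088). The knockout call ended without number 2 or 3 (-0.62, adjusted p = 0.084, and -1.01, adjusted p = 0.053). Within numbers 1, 2 and 3 these were 1.83, 1.35 and 1.22, and -0.80, -1.22 and -0.44. Against media the knockout differed by 0.64 ± 0.19, not called at a limma adjusted p of 0.34 (range over the alternatives with all arrays 0.15 to 0.53). Its 95% interval, not adjusted for the number of genes, was 0.22 to 1.06, and it was 1.02, 0.13 and 0.78 within numbers 1, 2 and 3.

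Dusp5 encodes a nuclear phosphatase selective for ERK. The probe set 1437199_at read 876, 2610 and 2790 units in STING tumor DNA arrays, 1760, 1890 and 2700 in WT tumor DNA arrays, and 814, 843 and 1060 in WT media arrays. STING tumor DNA array 1 lay in the range of media, and arrays 2 and 3 of that group lay within or above the range of WT tumor DNA. The rise in wild type was 1.19 ± 0.39 (limma adjusted p = 0.039) and was close to the threshold: the call ended without any 1 array of either group (0.060 to 0.12), without number 2 or 3 (0.14 and 0.16), without the filter (0.050) and without the intensity trend (0.055). The knockout differed from wild type under DNA by -0.16 ± 0.39 (limma adjusted p = 0.78), with a 95% interval of -1.03 to 0.71. The knockout minus media difference was 1.03 ± 0.39 (limma adjusted p = 0.54), and became 1.57 with an adjusted p of 0.013 without STING tumor DNA array 1, and 1.50 with an adjusted p of 0.038 without all arrays numbered 1.

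Dusp2, a nuclear phosphatase of activated leukocytes (1450698_at), read 276, 167 and 220 units in STING tumor DNA arrays, 349, 251 and 144 in WT tumor DNA arrays, and 132, 130 and 126 in WT media arrays. All 6 arrays with DNA were above the 3 in media, and the knockout and wild type overlapped. The wild-type difference was 0.78 ± 0.30 (limma adjusted p = 0.071). It was called with the replicate number as a block (adjusted p = 0.033), with quantile normalization (0.045), with centring over the kept probe sets (0.033) and without WT tumor DNA array 3 (0.015). Without WT tumor DNA array 1 it was 0.51 (adjusted p = 0.22). Under DNA the knockout differed by -0.10 ± 0.30, with a 95% interval of -0.78 to 0.57.

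Dusp4, an ERK and JNK phosphatase of the nucleus (1428834_at), read 86.9, 92.7 and 112 units in STING tumor DNA arrays, 81.7, 150 and 180 in WT tumor DNA arrays, and 23.8, 59.2 and 119 in WT media arrays. These signals are near the array medians and the groups overlapped. The wild-type difference was 0.99 ± 0.43 (limma adjusted p = 0.10), and was called with the replicate block (adjusted p = 0.022), with centring over the kept probe sets (0.048) and without WT media array 3 (0.027). Without WT media array 1 it was 0.55 (adjusted p = 0.31). It was 1.24 with no offset and 0.65 with an offset of 64. The knockout differed from wild type under DNA by -0.39 ± 0.43 (limma adjusted p = 0.53), a value that was -0.68 without WT tumor DNA array 1 and -0.18 without array 3.

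The ERK-selective cytoplasmic enzymes parted from each other. Dusp6 (1415834_at) read 3030, 3910 and 4030 units in STING tumor DNA arrays, 2060, 4230 and 4230 in WT tumor DNA arrays, and 2380, 3400 and 3560 in WT media arrays. In each group the array numbered 1 was the lowest, and the groups overlapped. Dusp6 differed by 0.12 ± 0.28 with DNA in wild type (limma adjusted p = 0.78, 95% interval -0.51 to 0.75) and by 0.12 ± 0.28 in the knockout under DNA (limma adjusted p = 0.77, 95% interval -0.51 to 0.75).

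Dusp7 (1427416_x_at) read 160, 347 and 284 units in STING tumor DNA arrays, 49.3, 109 and 77.4 in WT tumor DNA arrays, and 207, 289 and 293 in WT media arrays. All WT tumor DNA signals were below those of the other arrays. The fall in wild type was -1.59 ± 0.33 (limma adjusted p = 0.0054), and the knockout was higher under DNA by 1.55 ± 0.33 (limma adjusted p = 0.0058). Within numbers 1, 2 and 3 these were -1.77, -1.29 and -1.73, and 1.43, 1.54 and 1.69. Both calls ended without number 3 (adjusted p = 0.085 and 0.095). Because WT tumor DNA signals were near the array medians, these sizes depend on the offset: they were -1.80 and 1.75 with no offset and -1.21 and 1.18 with an offset of 64. The suffix of this probe set (_x_at) marks probes that may also match other transcripts.

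Of the other Dusp7 probe sets, 1452097_a_at read 177, 292 and 316 units in STING tumor DNA arrays, 22.8, 76.9 and 14.2 in WT tumor DNA arrays, and 106, 147 and 144 in WT media arrays. It differed by -1.62 ± 0.40 in wild type (limma adjusted p = 0.013 over 27022 probe sets) and by 2.50 ± 0.40 in the knockout under DNA (adjusted p = 0.0016). The third, 1460393_a_at, differed by -0.28 ± 0.27 in wild type (adjusted p = 0.47) and by 0.88 ± 0.27 in the knockout (adjusted p = 0.034). The higher level in the knockout under DNA was thus called with all 3 probe sets, and the fall in wild type with 2 of 3.

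The atypical members also fell in wild type. Dusp3, an ERK and JNK phosphatase also known as VHR (1434472_at), read 3800, 3260 and 3540 units in STING tumor DNA arrays, 1300, 1400 and 995 in WT tumor DNA arrays, and 3250, 3140 and 2850 in WT media arrays. The fall in wild type was -1.33 ± 0.16 (limma adjusted p = 0.00051) and the knockout was higher under DNA by 1.52 ± 0.16 (limma adjusted p = 0.00022). Within numbers 1, 2 and 3 these were -1.31, -1.16 and -1.50, and 1.53, 1.21 and 1.81. Every knockout signal also lay above every media signal, by a mean difference of 0.19 ± 0.16 that was not called (limma adjusted p = 0.88).

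The size for Dusp3 rests on this probe set. Probe set 1456769_at read 1380 to 1600 units in STING tumor DNA arrays, 902 to 963 in WT tumor DNA arrays and 942 to 1190 in WT media arrays, and 1425608_at read 475 to 718 units in STING tumor DNA arrays, 389 to 439 in WT tumor DNA arrays and 450 to 604 in WT media arrays. Their wild-type differences were -0.20 ± 0.15 and -0.27 ± 0.20 (limma adjusted p = 0.37 and 0.36 over 27022 probe sets), and with quantile normalization -0.02 and 0.03. Their knockout differences under DNA were 0.67 ± 0.15 (adjusted p = 0.0099) and 0.54 ± 0.20 (adjusted p = 0.079). Averaged over the 3 probe sets, the differences were -0.60 in wild type and 0.91 in the knockout (adjusted p = 0.0062 and 0.00079). Taken singly, the fall in wild type was called with 1 of 3 probe sets and the higher level in the knockout with 2 of 3.

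Dusp22, a small phosphatase known as a regulator of JNK and of T cell receptor signalling (1448985_at), read 947, 946 and 937 units in STING tumor DNA arrays, 339, 634 and 845 in WT tumor DNA arrays, and 978, 1060 and 1200 in WT media arrays. The WT tumor DNA arrays were the lowest and the most spread. The fall in wild type was -0.90 ± 0.28 (limma adjusted p = 0.031). This call ended with quantile normalization (-0.65, adjusted p = 0.077), with centring over the kept probe sets (-0.60, 0.11), without any 1 WT media array (0.055 to 0.090), and without number 1, 2 or 3 (0.054, 0.13 and 0.069). The knockout was 0.72 ± 0.28 higher under DNA (limma adjusted p = 0.076), a difference called with the replicate block (0.030) and without WT tumor DNA array 3 (0.020). Both sizes rest on WT tumor DNA array 1, the lowest: without it the wild-type difference was -0.55 (adjusted p = 0.050) and the knockout difference 0.36 (adjusted p = 0.17), and the knockout difference was 0.36 without all arrays numbered 1 and 0.46 with centring over the kept probe sets.

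**Figure D3:**
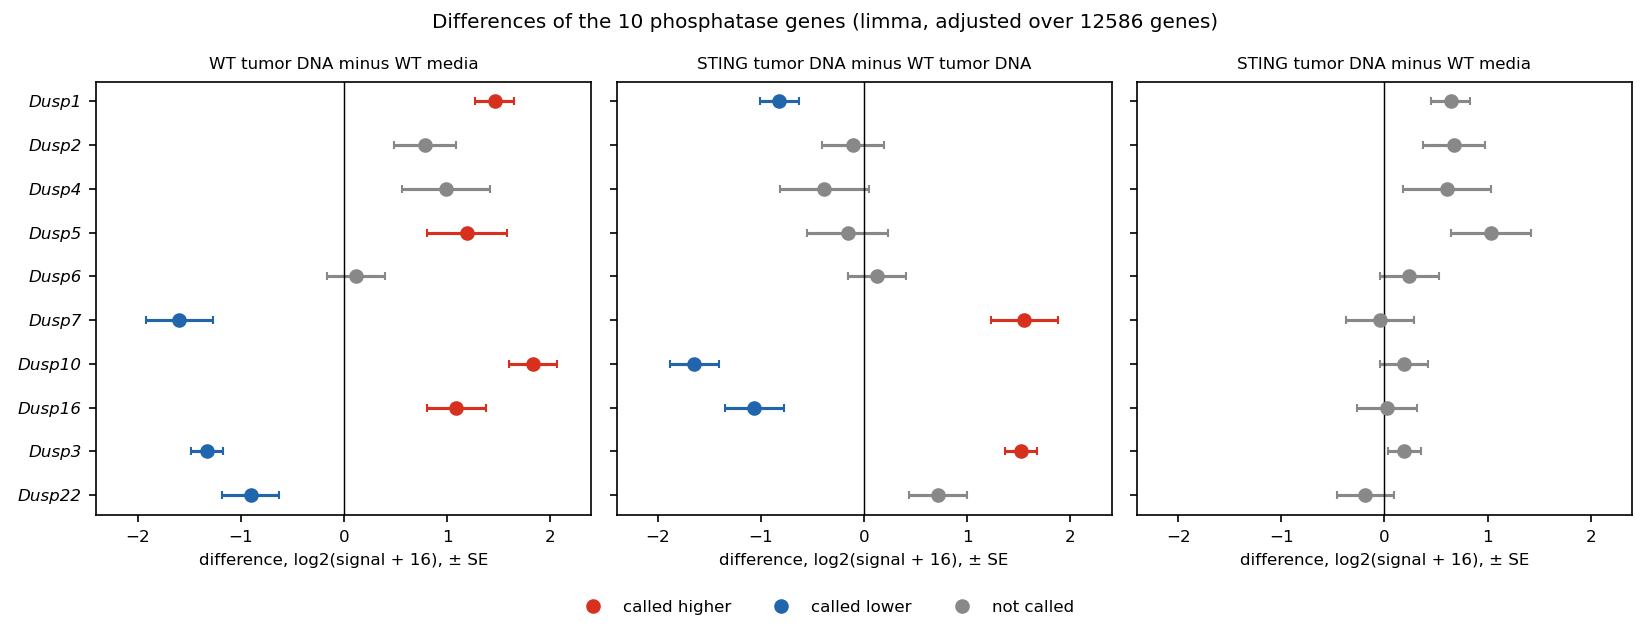
Difference in log2(signal + 16) with its SE for the 10 genes in the 3 comparisons (n = 3 per group), red where called higher, blue where called lower and grey where not called. Dusp1, Dusp10 and Dusp16 lie right of 0 in the left panel and left of 0 in the middle one, Dusp3 and Dusp7 the reverse, and no gene is called in the right panel.

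**Figure D4:**
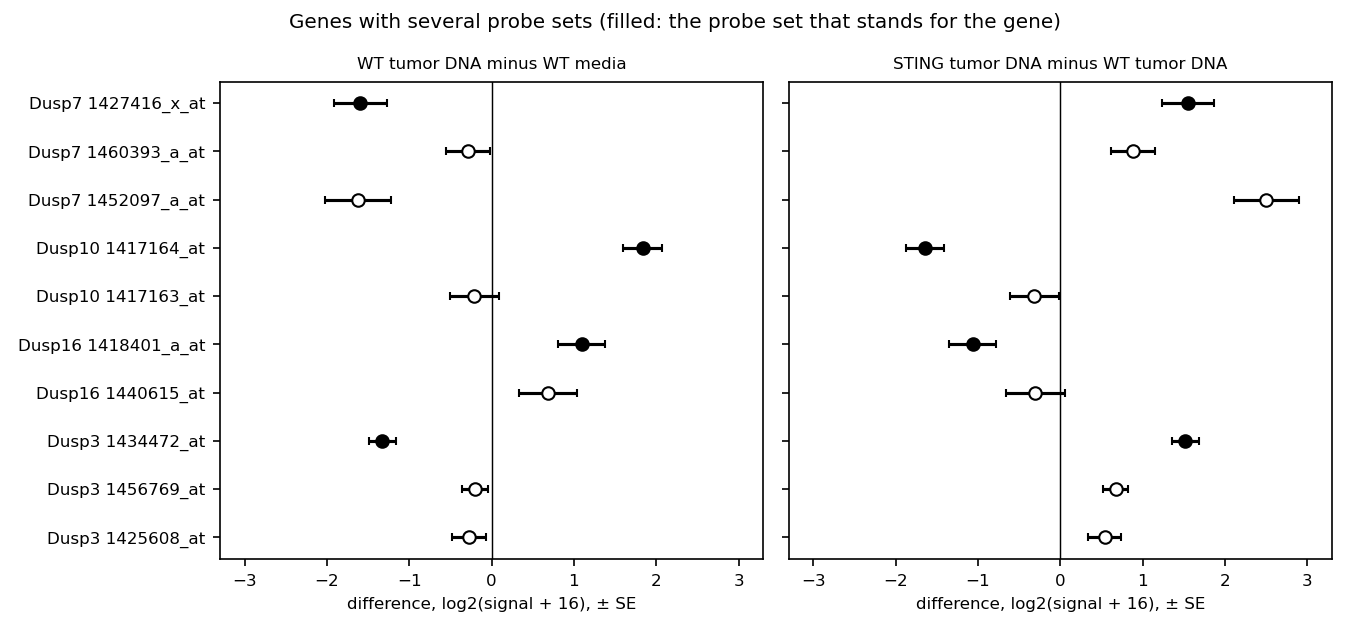
Difference in log2(signal + 16) with its SE for every probe set of the 4 genes that have more than 1, filled where the probe set stands for the gene. The Dusp3 values in wild type range from -1.33 to -0.20, and the 3 Dusp7 values in the knockout comparison all lie above 0.

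Counted by probe set, 8 of the 15 that passed the filter were called with DNA in wild type, 4 higher and 4 lower. Of all probe sets 27% were called, 8.54% higher and 18.4% lower. In the knockout under DNA 8 of 15 were called, 5 higher and 3 lower, against 25.1% of all, 16.8% higher and 8.35% lower. Against media 0 of the 15 were called by limma, against 0.381% of all. Probe sets of 1 gene share its transcript and are not separate evidence.

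Genes that these phosphatases act on or work beside are given next. The lists were chosen with earlier results of these data known, and their counts describe these arrays. They are to be read against all genes, of which 33.6% were called in wild type (9.94% higher, 23.6% lower) and 31.5% in the knockout under DNA (21.8% higher, 9.73% lower). With so few genes in a list, counts near those shares are not a result about the list. Of 6 MAP kinases tested 1 rose and 2 fell with DNA in wild type. Mapk14, the main p38 kinase, fell by 0.95 on the log2 scale (SE 0.18, limma adjusted p = 0.0036), with 1660 to 2110 units in WT tumor DNA arrays and 3210 to 4080 in WT media arrays. In the knockout under DNA it was 0.91 ± 0.18 higher (limma adjusted p = 0.0041). Mapk7 (ERK5) differed by -0.98 ± 0.18 and 0.92 ± 0.18 in the same comparisons, both called. Mapk9, a JNK, differed by 0.51 ± 0.17 and -0.61 ± 0.17, both called, and Mapk8, another JNK, by -0.27 ± 0.20 and 0.51 ± 0.20, neither called, although the knockout difference was called with the replicate block (adjusted p = 0.031). The other Mapk14 probe sets differed by -0.77 to -0.37 in wild type, and those of Mapk9 by -0.09 to 0.84.

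Of 6 MAP kinase kinases 2 rose and 2 fell in wild type. Map2k1, which activates ERK, read 4760 to 5160 units in STING tumor DNA arrays, 10400 to 11500 in WT tumor DNA arrays and 3890 to 5990 in WT media arrays. It rose by 1.25 ± 0.16 in wild type (limma adjusted p = 0.00071) and differed in the knockout under DNA by -1.17 ± 0.16 (limma adjusted p = 0.00077). Map2k4, upstream of JNK, differed by 0.71 ± 0.18 and -0.63 ± 0.18, both called, and Map2k6, upstream of p38, by -1.17 ± 0.25 in wild type (limma adjusted p = 0.0066). Map2k6 read 33 to 49.9 units in WT tumor DNA arrays, below the array medians, and 95.7 to 135 in WT media arrays. Map2k2 was 0.43 ± 0.14 higher in the knockout (limma adjusted p = 0.047).

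Of 13 kinases at the top of the cascades 1 rose and 6 fell in wild type, and 7 were higher and 0 lower in the knockout under DNA. The list's median was -0.55 in wild type and 0.50 in the knockout, against -0.20 and 0.20 for all genes. With quantile normalization the 6 falls became 3, the calls of Araf, Braf and Map3k4 having ended. In the knockout the 7 higher became 4, the calls of Araf, Map3k1 and Map3k4 having ended, and 1 lower, with that normalization and also with centring over the kept probe sets. Map3k3, Map3k20 and Map3k2 fell, by differences of -1.27 ± 0.15, -1.49 ± 0.21 and -1.17 ± 0.24. In the knockout they were higher by 1.17 ± 0.15, 1.75 ± 0.21 and 1.11 ± 0.24, all called. The exception in wild type was Map3k8 (TPL2), which activates the ERK branch downstream of NF-kappaB signalling and rose by 1.05 ± 0.35 (limma adjusted p = 0.044). In the knockout it differed by -0.94 ± 0.35 (limma adjusted p = 0.067), and was called with the replicate block (adjusted p = 0.0014), with quantile normalization and with centring over the kept probe sets. Other probe sets of all 3 gave smaller differences in wild type, at -0.70 to -0.55 for Map3k3, -0.46 to -0.08 for Map3k20 and -0.60 for Map3k2. In the knockout they gave 0.51 for Map3k3, 0.22 to 0.64 for Map3k20 and 0.19 for Map3k2.

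Of 7 kinases activated by MAP kinases 1 rose and 2 fell in wild type. Mapkapk2 (MK2), which acts below p38 to stabilise cytokine messenger RNAs, rose by 0.91 ± 0.23 (limma adjusted p = 0.013), while Mapkapk3 and Mknk1 fell, by differences of -0.73 ± 0.21 and -1.03 ± 0.23. In the knockout under DNA Mapkapk2 was lower by -0.70 ± 0.23, and Mapkapk3 and Mknk1 higher by 1.72 ± 0.21 and 0.74 ± 0.23, all called. Mapkapk3 also lay above media in the knockout, with 3360 to 5150 units against 1800 to 2870. That difference was 0.99 ± 0.21, not called (limma adjusted p = 0.12). It was called without STING tumor DNA array 1 and without all arrays numbered 1. Other Mknk1 probe sets differed by -0.63 to -0.40 in wild type and by -0.25 to 0.39 in the knockout. With centring over the kept probe sets only Mapkapk2 of this list was called in wild type, and with quantile normalization or median centring only 1 gene was called in the knockout. Of 7 scaffolds 0 rose and 3 fell: Arrb1 (-1.55 ± 0.19), Arrb2 (-0.93 ± 0.17) and Ksr1 (-1.14 ± 0.26), the last with another probe set at 0.10. All 3 were higher in the knockout under DNA, at 1.24 ± 0.19, 0.86 ± 0.17 and 0.93 ± 0.26, with the other Ksr1 probe set at -0.28. The replicate block also called Lamtor3, a scaffold of the ERK branch, at -0.41 in wild type and 0.45 in the knockout (adjusted p = 0.015 and 0.011).

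Other phosphatases changed in both directions in wild type. Of 9 further dual-specificity phosphatases tested 1 rose and 3 fell in wild type. Dusp28 read 162 to 340 units in STING tumor DNA arrays, 886 to 1150 in WT tumor DNA arrays and 206 to 448 in WT media arrays, a rise of 1.72 ± 0.32 in wild type (limma adjusted p = 0.0034) and a difference of -2.05 ± 0.32 in the knockout (limma adjusted p = 0.0013). Dusp12, Dusp18 and Dusp19 fell, by differences of -0.98 ± 0.21, -1.30 ± 0.30 and -1.12 ± 0.31, and were higher in the knockout. Dusp18 read 16.4 units on average with DNA in wild type, below the array medians, and another Dusp12 probe set differed by 0.48. Of 5 other phosphatases Ppp2ca rose by 0.37 ± 0.12, with another probe set at -1.06, and Ppm1d (WIP1) fell, at -1.08 ± 0.24. In the knockout Ppm1d and Ppp2cb were higher, by 1.08 ± 0.24 and 0.70 ± 0.14. Of 6 Sprouty and Spred genes, inhibitors of the ERK branch, Spred1 alone was called without the replicate block, at 1.23 ± 0.31 in wild type and -1.20 ± 0.31 in the knockout. With the block Spry2 (1.05, adjusted p = 0.022) and Spred2 (-0.48, 0.012) were also called in wild type, and Spred2 (0.72, 0.0017) in the knockout. Other Spred2 probe sets disagreed in direction, at -0.37 to 0.46 in wild type and -0.77 to 0.49 in the knockout.

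Targets that MAP kinase signalling and DUSP1 regulate in mouse myeloid cells were mostly higher with DNA. Of 10 such cytokines and enzymes 7 rose and 0 fell in wild type, and 0 were higher and 5 lower in the knockout under DNA, with list medians of 1.76 and -1.52. In the knockout against media 0 of the 10 were called, but the list median was 0.81, against -0.01 for all genes. Il12b, Il6 and Tnf rose by 5.10 ± 0.52, 3.68 ± 0.60 and 3.20 ± 0.59. Il10, an anti-inflammatory cytokine, rose by 1.46 ± 0.35, with 16.8 to 24.5 units in STING tumor DNA arrays, 88.9 to 163 in WT tumor DNA arrays and 16.8 to 54.9 in WT media arrays. The Il10 signals in STING tumor DNA and WT media arrays were near or below the array medians and cannot be told from background, so the sizes of its differences are uncertain. In the knockout Il12b, Il10, Il6 and Tnf differed by -2.89 ± 0.52, -1.87 ± 0.35, -3.07 ± 0.60 and -1.99 ± 0.59, all called. In the ZFP36 family, whose products destabilise cytokine messenger RNAs, Zfp36 rose by 1.20 ± 0.20 in wild type, whereas Zfp36l1 and Zfp36l2 fell, by differences of -1.34 ± 0.25 and -1.14 ± 0.28. In the knockout they differed by -0.77 ± 0.20, 1.34 ± 0.25 and 1.22 ± 0.28, all called. Other Zfp36l2 probe sets gave smaller differences, at -0.76 to -0.55 in wild type and 0.32 to 0.36 in the knockout.

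Of the 37 genes called in these lists in wild type, 21 stayed called under every alternative that kept all arrays, and 6 also with each array or number left out: Arrb1, Il12b, Il6, Map2k1, Map3k3 and Mapk14. In the knockout comparison the counts were 34, 21 and 10, the last being Arrb1, Dusp18, Dusp28, Il10, Il12b, Il6, Map2k1, Map3k20, Map3k3 and Mapkapk3. The calls of some named genes of these lists ended under a setting with all arrays. In wild type these were Araf, Braf, Dusp12, Dusp19, Ksr1, Map3k4, Map3k8, Map3k20, Mapk9, Mapkapk3, Mknk1, Ppp2ca and Zfp36l2. In the knockout they were Araf, Dusp12, Dusp19, Ksr1, Map2k2, Map2k4, Map3k1, Map3k4, Mapk9, Mapkapk2, Mknk1, Ppp2cb and Zfp36.

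**Figure D5:**
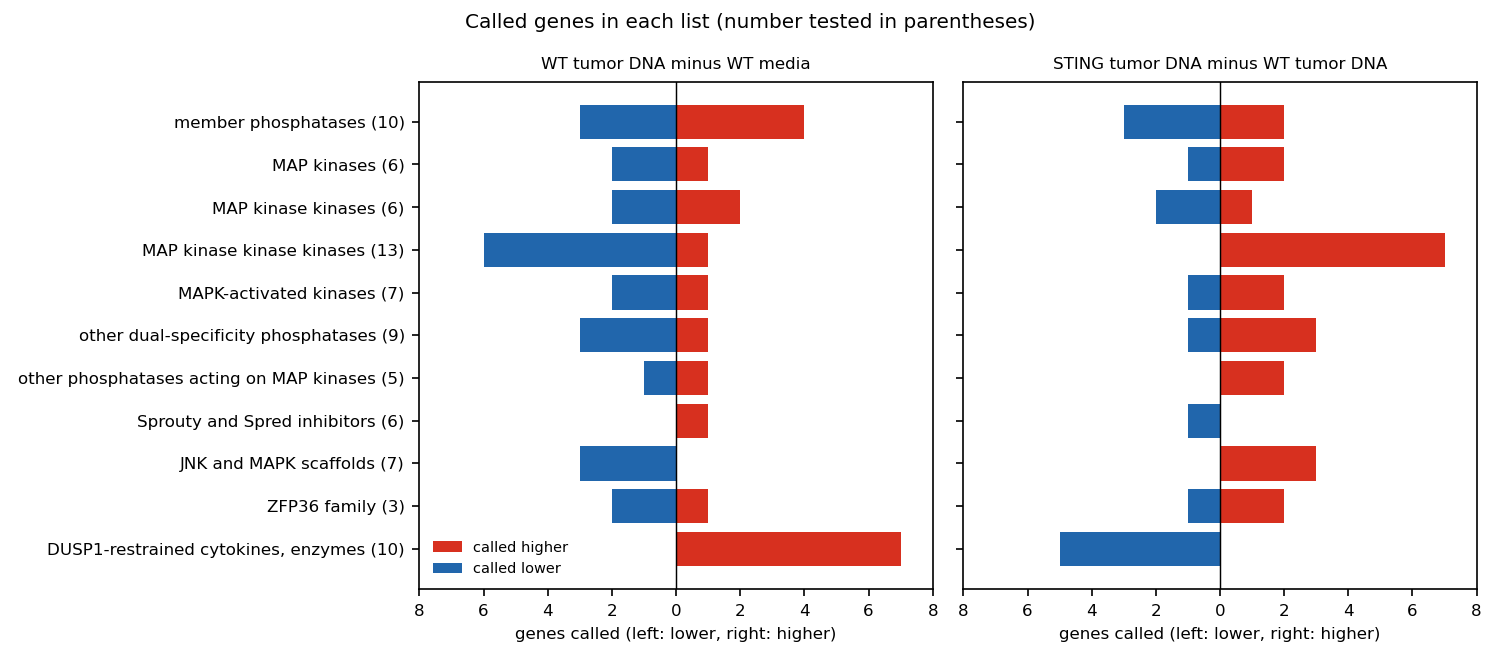
Number of genes called higher (right, red) or lower (left, blue) in each list, with the number tested in parentheses, for WT tumor DNA minus WT media and for STING tumor DNA minus WT tumor DNA. In wild type 7 of the 10 pathway lists hold genes called in both directions, in the knockout comparison 5, and the 10 cytokines and enzymes hold 7 rises in the first and 5 lower genes in the second.

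For the 3 phosphatases with the largest called log2 difference in wild type (Dusp10, Dusp7 and Dusp1), the most similar profiles were found by the root mean square difference of mean-centred log2 values over the 9 arrays, among 12586 genes. This is a description of these arrays. For Dusp10, whose own root mean square deviation was 0.85, the closest were Tle3, a corepressor (0.22), Whamm, an activator of actin assembly (0.23), and Slc25a22, a mitochondrial glutamate carrier (0.23). For Dusp7 (0.82) they were Clpp, a mitochondrial protease (0.13), Qrsl1 (0.17) and Utp4 (0.17). For Dusp1 (0.63) they were Spryd7 (0.17), Aopep, an aminopeptidase (0.18), and Glrx, a glutaredoxin (0.20).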

How the data were processed

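The deposited values were linear signal intensities from MAS5, per the submitters' processing notes; neither its version nor a genome build for the array is stated in those notes. Control probe sets (64) were removed, and the 40 percent of the rest with the lowest mean log2(signal + 16) were filtered out (at or below 5.67). This left 27022 probe sets and 12586 genes, each gene read by its brightest probe set. Of the probe sets 34945 had 1 symbol, 932 several and 9160 none in the platform annotation. Linear models with the group as the only term were fitted to the 9 arrays together (limma 3.58.1, R 4.3.3, lmFit and eBayes with an intensity trend), for genes and again for all kept probe sets. P-values were 2-sided and adjusted by the Benjamini-Hochberg method. The models were tested on simulated data in which arrays were independent and few genes changed. That simulation cannot show how they behave where arrays deviate together or many genes change. The number of arrays limits the precision.

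The members, lists, rule and tests were chosen with earlier results of these data known. Named by rule were all members, the 3 called genes with the smallest adjusted p in each list and comparison, a short set of kinases and cytokines whatever their result, and the 3 nearest profiles of the 3 members with the largest called difference in wild type. Other list genes were named after their values were seen. Listed genes with no probe set of a single symbol were not analysed here. Alternatives changed the offset, filter, scaling, intensity trend, use of several probe sets and replicate block, or left out arrays. Samples with the same number in the titles (the first of each group is unnumbered and was taken as 1) deviated together: residuals correlated at 0.11 to 0.43 within a number and -0.36 to 0.16 across numbers, and for all 9 arrays the best correlation was within the number. The numbers were therefore taken to pair the samples in the replicate block alone. The main models, and every p-value given without the block, left this pairing out. With the block 5634 genes were called in wild type, in place of 4224. In the knockout under DNA 5407 were called, in place of 3970.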

Additional observations from a re-analysis of the deposited data

How the results depend on the processing

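Every alternative that kept all arrays left the number of called phosphatase genes within 1.5 times of 7 and 5, and at 0 for the knockout against media. The split of all called genes moved with scaling. With DNA in wild type it was 1251 higher and 2973 lower as deposited, 1367 and 2202 with quantile normalization, and 2038 and 1451 when arrays were centred over the kept probe sets, an alternative chosen after seeing the data. The median gene was at -0.20 as deposited and 0.11 with that centring. In the knockout under DNA the split was 2746 and 1224 as deposited, against 1456 and 1805 with that centring. The phosphatases called with that centring were 6 higher and 2 lower in wild type, and 2 higher and 3 lower in the knockout. With the replicate block the knockout against media gave 176 genes and 323 probe sets, in place of 54 and 103. The block called Dusp2 and Dusp4 in wild type and Dusp22 in the knockout in addition, and changed no other call of the 10. Among other listed genes it also called Dusp14 and Ccl3 in wild type and Mapkapk5 in the knockout. With arrays left out, the phosphatases called were 3 to 6 in wild type (4 without number 2, 3 without number 3, 4 without WT media array 1), 2 to 5 in the knockout under DNA (3 without number 2, 2 without number 3) and 0 to 1 against media, the 1 being Dusp5. Genes called were 1492 to 3984 in wild type, 1379 to 3812 in the knockout under DNA and 4 to 131 against media, and probe sets 2206 to 6730, 2156 to 6375 and 5 to 224. Fewer arrays enter these fits.

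Signs turned only for phosphatase differences that were not called. With arrays left out, Dusp6 was -0.064 to 0.463 in wild type. In the knockout under DNA Dusp6 was -0.221 to 0.296, Dusp2 -0.436 to 0.167 and Dusp5 -0.473 to 0.374, and Dusp6 was -0.137 with centring over the kept probe sets. In the knockout against media Dusp7 was -0.262 to 0.258 and Dusp16 -0.225 to 0.333 with arrays left out, and Dusp7 was 0.013 with quantile normalization and 0.477 when its 3 probe sets were averaged. The cause of these changes was not tested. Signals near the array medians limit Dusp4, Dusp7 and the dim probe sets of Dusp10 and Dusp16.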
